A study of Mus musculus with 6 samples.

Results

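The SLC25 genes encode the mitochondrial carriers, and their transcripts were compared here between control lenses and lenses in which Celf1 had been deleted. Members were chosen by symbol, as every row of the deposited expression table whose symbol is Slc25a followed by a number. This gave 40 of the 13931 genes in the table, and 33 of these 40 had an average level above 1 log2 CPM (the log2 of read counts scaled to a common library size). Another 7 symbols of the family in the GENCODE M21 annotation, Slc25a2, Slc25a21, Slc25a31, Slc25a41, Slc25a43, Slc25a48 and Slc25a54, had no row and were not analysed here.

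Mitochondrial carriers are small proteins of the inner mitochondrial membrane, which few metabolites cross without help. Most of them exchange a metabolite on the matrix side for another on the cytosolic side, and the family moves ADP and ATP, phosphate, organic acids, amino acids, nucleotides, cofactors and iron. A few members act elsewhere, in peroxisomes or in the outer mitochondrial membrane. The lens epithelium and young fiber cells hold mitochondria, and fiber cells lose these and their other organelles as they mature. Celf1 is an RNA-binding protein that regulates the splicing, decay and translation of its target transcripts, and its GU-rich binding sites often lie in 3′ untranslated regions.

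RNA came from lenses of newborn mice at postnatal day 0, with 2 lenses pooled in each replicate and 3 replicates in each group. Celf1cKO mice carried the germline knockout allele Celf1lacZKI, the conditional allele Celf1flox and the transgene Pax6GFPCre, a Cre line active from the lens placode onward and also in the pancreatic lineage. Control mice are labelled Celf1lacZKI/+, a genotype that shares the germline knockout allele with Celf1cKO and has 1 intact allele, whereas the methods name Celf1flox mice without Cre as the usual control. The mice were of mixed C57BL/6 and FVB background. The labels do not name separate animals, so p-values measure the spread between these pools.

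The libraries held between 40694454 and 44387151 reads on the genes of the table. Celf1 itself had 9.95, 9.94 and 9.34 log2 CPM in Control lenses (libraries 1, 2 and 3 in this order, here and throughout) and 8.93, 7.66 and 7.83 log2 CPM in Celf1cKO lenses, a reduction and not a loss, and Celf1cKO library 1 kept the highest level of its group. Sex also differed between the pools. Transcripts of 4 Y-linked genes, Eif2s3y, Kdm5d, Uty and Ddx3y, summed to 144 CPM in Control libraries 1 and 2. They summed to between 0.381 and 0.453 CPM in Control library 3 and all Celf1cKO libraries. In this respect 1 Control library matched the Celf1cKO libraries. The X-linked transcript Xist was at 4.91, 0.32 and 943 CPM in Control and 495, 326 and 299 CPM in Celf1cKO lenses. Its level thus still differed between Control library 3 and the Celf1cKO libraries. Lens fiber markers (7 of 8 in the table) summed to between 165681 and 186022 CPM in Control and to between 129984 and 138188 CPM in Celf1cKO lenses. Cryaa dominated this sum, with a Control mean of 17.2 log2 CPM against 13.3 for Mip, the next highest. It was not called (log2 fold-change -0.33, limma adjusted p 0.54). Of the list, 3 were called reduced, namely Bfsp1, Birc7 and Dnase2b. Mip and Hsf4 were lower but not called. Bfsp2 was at 11.33, 11.56 and 8.59 log2 CPM in Control and 10.96, 10.53 and 10.59 log2 CPM in Celf1cKO lenses. Its groups overlapped, and its log2 fold-change of 0.20 owed its sign to the low Control library 3. That value ran from -0.75 to 0.73 when single libraries were left out. Lens epithelium markers (5 of 5) summed to between 527 and 565 CPM in Control and to between 169 and 455 CPM in Celf1cKO lenses, with 2 called reduced. Endothelial markers (4 of 4) spanned 57.7 to 77.5 CPM in Control and 7.22 to 76.1 CPM in Celf1cKO lenses, and the erythroid list had 1 of 6 genes in the table, at no more than 1.35 CPM. In whole lenses, fewer cells of a type cannot be told apart from less RNA per cell, and the part that cell composition or sex had in the results below was not tested beyond the values given.

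A gene was called when limma gave a Benjamini-Hochberg adjusted p under 0.05 over all genes, its log2 fold-change exceeded 0.58 up or down and its average level was above 1 log2 CPM. By this rule 4 of the 40 members were called, beside 7.39% of all genes. Slc25a1, Slc25a22 and Slc25a53 were elevated in Celf1cKO lenses, beside 4.77% of all genes, and Slc25a33 was reduced, beside 2.63% of all genes. With no threshold on fold or level, 8 members had an adjusted p under 0.05, beside 11.9% of all genes. Of these 8, the elevated ones were Slc25a1, Slc25a22, Slc25a53, Slc25a24, Slc25a46 and Slc25a17 (6 members, beside 7.85% of all genes), and the reduced ones were Slc25a23 and Slc25a33 (2 members, beside 4.03%). Fitting the replicate number as a block left the same 4 members called, beside 9.18% of all genes, and brought 9 members under an adjusted p of 0.05, beside 15.2% of all genes, the addition being Slc25a36. The members thus had 10% called and 20% past the test, shares within a few genes of the background, and nothing particular to the family is read from them.

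Across the family, log2 fold-changes ran from -0.70 to 1.98, and 22 members were higher and 18 lower in Celf1cKO lenses. The median member had a log2 fold-change of 0.05, beside -0.04 over all genes. Groups did not overlap in 16 members. In 9 of them every Celf1cKO library was above every Control library, beside 19.5% of all genes, and in 7 every Celf1cKO library was below, beside 17% of all genes. The threshold on fold lay close to several members, since Slc25a53 passed it at 0.63 while Slc25a24 at 0.57, Slc25a46 at 0.56 and Slc25a17 at 0.52 did not. When libraries were scaled by their total counts instead, the median of expressed genes shifted by 0.23 on the log2 scale, 7 members were called, beside 13.4% of all genes, and all were elevated, beside 11.9% of all genes. Slc25a33 and Slc25a23 stayed lower in Celf1cKO lenses but no longer passed the test under this scaling.

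**Figure D1:**
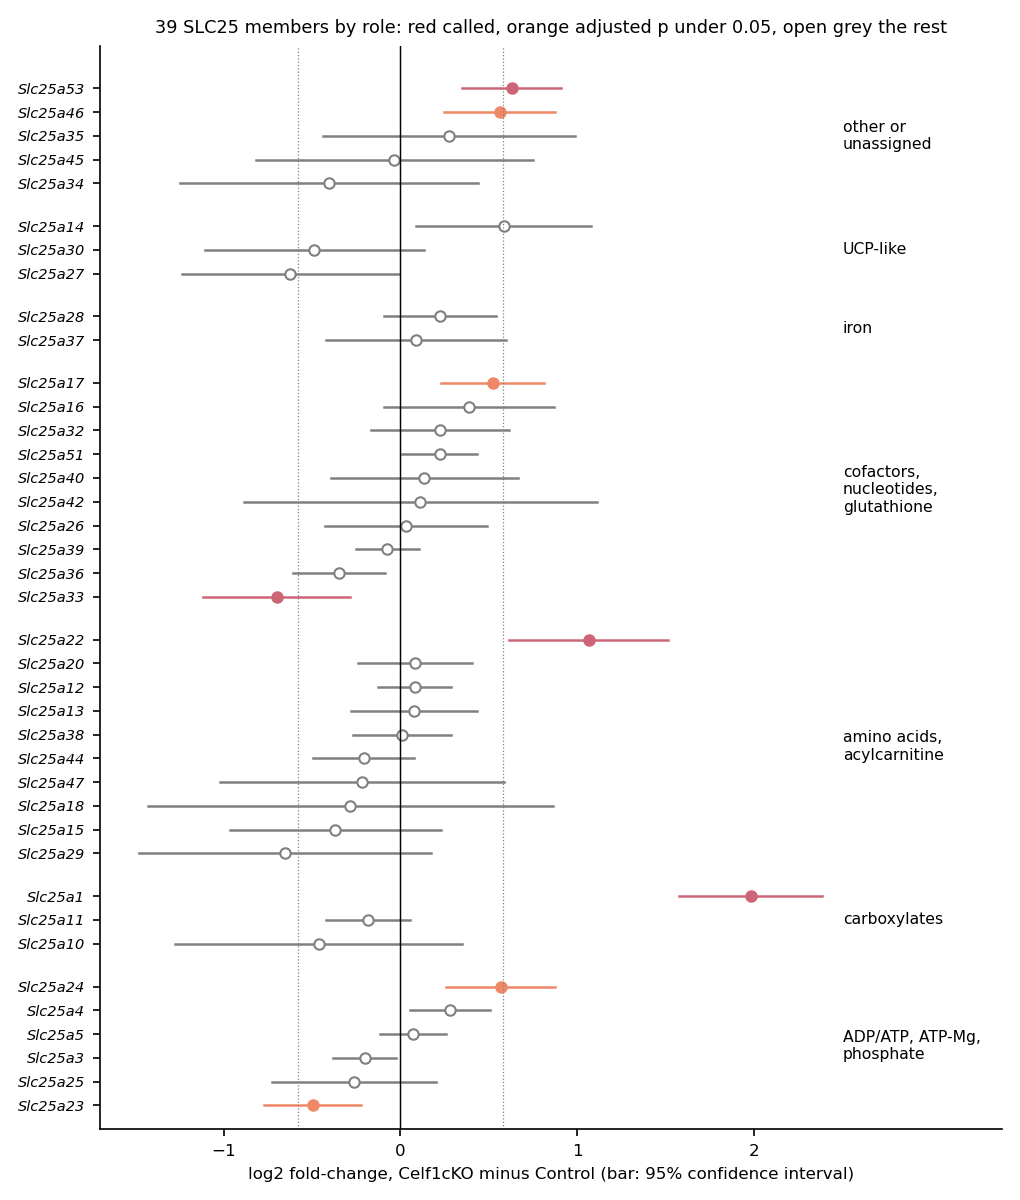
Log2 fold-change (Celf1cKO minus Control, horizontal axis) of 39 of the SLC25 genes, grouped by what they carry, with the 95% confidence interval from limma as a bar and dotted lines at 0.58 in each direction. Slc25a1 stands far to the right at 1.98, Slc25a22 follows at 1.06, Slc25a33 is lowest at -0.70, and the intervals of most other members cross 0.

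The calls depended on single libraries. Leaving out Control library 1, 2 or 3 left 1, 0 or 2 members called, beside 4.28%, 0.00718% and 3.14% of all genes. Leaving out Celf1cKO library 1, 2 or 3 left 8, 2 or 0, beside 13.8%, 3.13% and 0.00718% of all genes, so the members' count moved with that of the whole table. A single gene of the whole table was called in each of these fits that had no member called. An unadjusted limma p under 0.05 was found in 12 members without Control library 2 and in 8 without Celf1cKO library 3. With all libraries, 14 members and 4171 of all 13931 genes had one. The share of all genes in the fits with a library left out is not given here, so nothing is read from these counts. A fit with Y-linked status as a covariate was added after the data were seen. It rested on Control library 3, the only Control library without Y-linked transcripts. It also called none of the members, and 10 members had an unadjusted limma p under 0.05. The share of all genes at that bar is not given here either. That fit called 0.115% of all genes, so the absence of members among them says nothing about the family. All 8 members past the test kept their direction in every fit that was run.

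The carriers of carboxylates were represented by 3 members, of which 1 was called elevated, beside 4.77% of all genes. Slc25a1, the citrate carrier, which exports mitochondrial citrate for cytosolic acetyl-CoA and lipid synthesis, gave the largest difference of the family. In Control lenses it had 3.71, 3.42 and 3.66 log2 CPM, against 5.22, 5.80 and 5.71 log2 CPM in Celf1cKO lenses, from 397 to 499 reads in the former and 1597 to 2704 in the latter. Every Celf1cKO library was above every Control library, with Celf1cKO library 1 lowest in its group. The log2 fold-change was 1.98 (SE 0.17, 95% confidence interval 1.57 to 2.38), or 3.94-fold, with a limma adjusted p of 0.0085. Leaving out Control library 2 or Celf1cKO library 3 gave log2 fold-changes of 1.89 and 1.91 with limma adjusted p of 0.051 and 0.061, and the fit with Y-linked status gave 1.91 (SE 0.26, limma adjusted p 0.062), the range over all alternative fits being 0.0011 to 0.062.

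Slc25a11, the oxoglutarate and malate carrier of the malate-aspartate shuttle, was at 5.95, 6.07 and 5.76 log2 CPM in Control and 5.68, 5.75 and 5.79 log2 CPM in Celf1cKO lenses. The groups overlapped, and its log2 fold-change of -0.18 did not pass the test (limma adjusted p 0.27), its sign turning under total-count scaling. Within each library, Slc25a1 minus Slc25a11 was -2.24, -2.64 and -2.10 in Control and -0.46, 0.04 and -0.08 in Celf1cKO lenses, a difference in log2 CPM that does not depend on the scaling of libraries. These values did not overlap between groups, with an exact permutation p of 0.1, the smallest that 3 against 3 libraries allow. Overlap was not possible, since the gap between groups in Slc25a1 alone exceeded the whole range of Slc25a11. The permutation test therefore adds nothing to the result for Slc25a1. The dicarboxylate carrier gene Slc25a10 was low, between 0.59 and 1.92 log2 CPM over all libraries, and did not pass the test (log2 fold-change -0.46, limma adjusted p 0.41).

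The promoter of Slc25a1 is shown because its gene had the largest difference, and that of Slc25a33 because it was the only member called reduced. Both are RefSeq promoters of GRCm38.p6, on the minus strand, from 250 bases before to 50 bases after the start of transcription. They lie at chr16:17928170-17928469 for Slc25a1 and chr4:149774218-149774517 for Slc25a33. Capitals mark matches, on either strand, to CCAAT, to the GC box GGGCGG and to the E-box CACGTG, and no matches overlap here.
Slc25a1 promoter: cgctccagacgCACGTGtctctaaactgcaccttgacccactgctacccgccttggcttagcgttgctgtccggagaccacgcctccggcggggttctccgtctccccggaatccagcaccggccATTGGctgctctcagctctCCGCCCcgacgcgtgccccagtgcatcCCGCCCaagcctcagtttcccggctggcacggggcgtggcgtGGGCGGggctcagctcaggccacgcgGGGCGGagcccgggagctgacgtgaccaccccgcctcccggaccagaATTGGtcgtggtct
Slc25a33 promoter: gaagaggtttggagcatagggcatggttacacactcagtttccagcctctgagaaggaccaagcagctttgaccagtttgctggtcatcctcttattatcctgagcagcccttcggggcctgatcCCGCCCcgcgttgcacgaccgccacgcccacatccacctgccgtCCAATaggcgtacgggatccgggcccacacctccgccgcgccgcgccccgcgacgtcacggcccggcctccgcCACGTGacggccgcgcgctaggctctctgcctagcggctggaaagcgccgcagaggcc
The Slc25a1 promoter held 2 CCAAT, 4 GGGCGG and 1 CACGTG, and that of Slc25a33 held 1 of each. Of the members, 31 had an entry in the promoter table, with 40 promoters in all. CCAAT was in 52.5% of these 40 beside 37.6% of the 13877 promoters of all genes in the table, GGGCGG in 87.5% beside 60.9%, and CACGTG in 17.5% beside 9.69%. TCACNCCAC, the pattern searched for a sterol element, was in 2.5% of member promoters (Slc25a18 only) beside 1.15%, and TGATGNAA, searched for the amino acid response element, was in 0 of 40 beside 2.28%. Median GC content was 59.8% in member promoters and 60.7% in all. A match is a description of the letters and not a bound site.

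**Figure D2:**
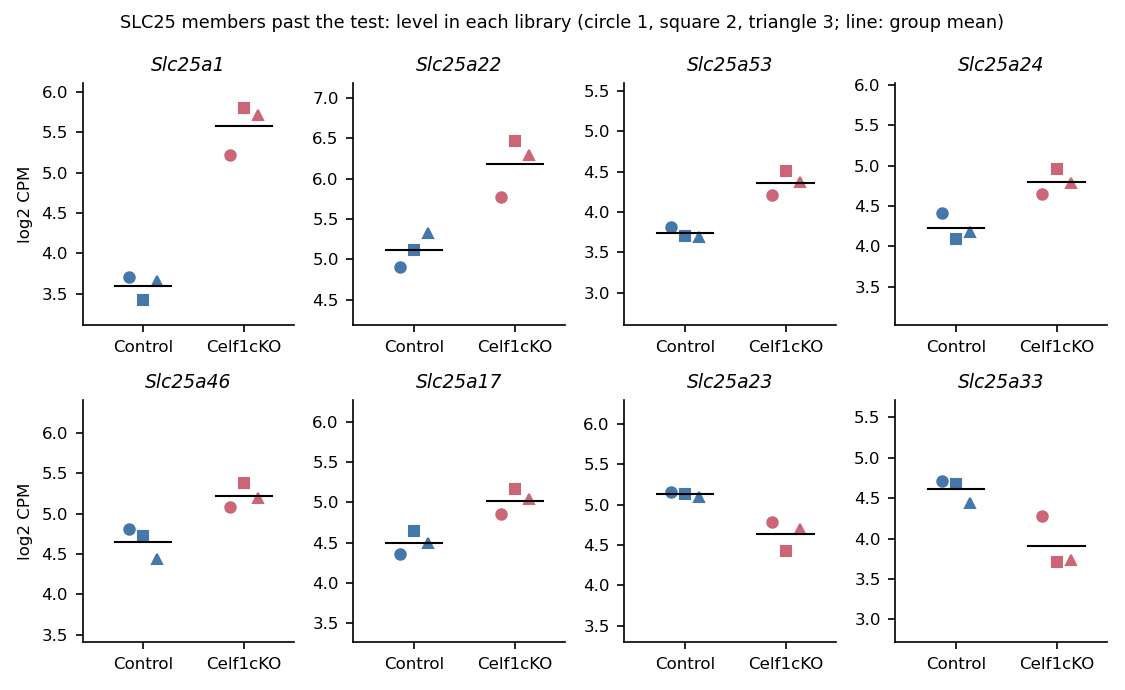
Level in log2 CPM (vertical axes, each spanning 3 units) of the 8 members with an adjusted p under 0.05, in each Control (blue) and Celf1cKO (red) library, with the group mean as a line. The groups do not overlap in any of the 8 genes, and Celf1cKO library 1 (circle) is nearest to the Control mean in each.

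Among carriers of amino acids and acylcarnitine, 1 of 10 members was called elevated, beside 4.77% of all genes, and none was called reduced, beside 2.63%. Slc25a22, which brings glutamate into mitochondria together with protons, was at 4.90, 5.11 and 5.33 log2 CPM in Control and 5.77, 6.46 and 6.29 log2 CPM in Celf1cKO lenses. No Celf1cKO library fell within the Control range. The log2 fold-change was 1.06 (SE 0.19, 95% confidence interval 0.61 to 1.51), or 2.09-fold, with a limma adjusted p of 0.019. The call was lost without Control library 1, Control library 2 or Celf1cKO library 3, where log2 fold-changes were 0.96, 1.06 and 1.01 and limma adjusted p 0.058, 0.073 and 0.090. Its paralogue Slc25a18, the other glutamate carrier gene, with 71.3% identical bases over the aligned coding sequence, was near the limit of detection at 10 to 30 reads per library.

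Slc25a12 and Slc25a13 encode the aspartate and glutamate carriers aralar and citrin, which also serve the malate-aspartate shuttle. Slc25a12 was at 4.78, 4.88 and 4.81 log2 CPM in Control and 4.86, 4.92 and 4.93 log2 CPM in Celf1cKO lenses. Slc25a13 was at 3.62, 3.80 and 3.43 log2 CPM in Control and 3.51, 3.83 and 3.73 log2 CPM in Celf1cKO lenses. Both sets of values overlapped between groups, with log2 fold-changes of 0.08 (95% confidence interval -0.13 to 0.29) and 0.07 (-0.28 to 0.43), and neither passed the test (limma adjusted p 0.58 and 0.78).

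Slc25a29, a carrier of basic amino acids, was at -0.52, -0.84 and -0.66 log2 CPM in Control and at -1.25, -1.77 and -0.96 log2 CPM in Celf1cKO lenses. Its groups did not overlap, but these levels rest on 12 to 25 reads and the log2 fold-change of -0.65 did not pass the test (limma adjusted p 0.25). The other members of the group, the ornithine carrier gene Slc25a15, the carnitine and acylcarnitine carrier gene Slc25a20, the glycine carrier gene Slc25a38, the branched-chain amino acid carrier gene Slc25a44 and Slc25a47, whose substrate is less certain, had log2 fold-changes between -0.37 and 0.08, and none passed the test.

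Carriers of ADP, ATP and phosphate included the most abundant transcripts of the family. Per kilobase of exon, Slc25a4, which encodes the ADP/ATP carrier of heart and muscle, reached 145.8 ± 10.8 CPM per kb in Control and 177 ± 14.4 CPM per kb in Celf1cKO lenses (SD, n = 3). It had 8.45, 8.51 and 8.30 log2 CPM in Control and 8.58, 8.82 and 8.70 log2 CPM in Celf1cKO lenses. The groups did not overlap, yet the log2 fold-change of 0.28 (95% confidence interval 0.05 to 0.51) did not pass the test, with a limma adjusted p of 0.10.

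Slc25a5, the other ADP/ATP carrier gene of these lenses, lies on the X chromosome and has 77.4% identical bases to Slc25a4 in the coding sequence. It was at 6.60, 6.52 and 6.43 log2 CPM in Control and 6.61, 6.61 and 6.55 log2 CPM in Celf1cKO lenses, with overlap between groups. Slc25a4 made up 71.7%, 73.5% and 71.8% of the summed CPM per kb of both genes in Control and 73.3%, 76.4% and 75.7% in Celf1cKO lenses. These shares overlapped between groups (exact permutation p 0.2). GENCODE lists 1 pseudogene named after Slc25a5, and reads shared with it would have been lost among reads that did not map uniquely.

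Slc25a3, the phosphate carrier, which supplies phosphate for ATP synthesis, was at 6.76, 6.79 and 6.78 log2 CPM in Control and 6.66, 6.53 and 6.53 log2 CPM in Celf1cKO lenses. All Celf1cKO libraries lay below all Control libraries, but the log2 fold-change of -0.20 did not pass the test (limma adjusted p 0.13) and turned to 0.02 under total-count scaling.

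The calcium-regulated ATP-Mg and phosphate carriers, which adjust the adenine nucleotide content of the matrix, differed in direction. Slc25a23 was at 5.16, 5.14 and 5.09 log2 CPM in Control and 4.78, 4.42 and 4.69 log2 CPM in Celf1cKO lenses. It was reduced without overlap, with a log2 fold-change of -0.50 (SE 0.12, limma adjusted p 0.038), short of the fold threshold. Slc25a24 was at 4.42, 4.09 and 4.18 log2 CPM in Control and 4.65, 4.96 and 4.79 log2 CPM in Celf1cKO lenses. It was elevated without overlap, with a log2 fold-change of 0.57 (SE 0.13, limma adjusted p 0.036).

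Within libraries, Slc25a24 minus Slc25a23 was -0.75, -1.04 and -0.91 in Control and -0.14, 0.53 and 0.10 in Celf1cKO lenses, as differences in log2 CPM. The mean difference between groups was 1.06 (exact permutation p 0.1, the smallest possible). The values could not overlap, since each gene alone separated the groups and in opposite directions. The permutation test therefore adds nothing to the results of the single genes. Per kilobase the order of the pair turned: Slc25a23 had 6.60 ± 0.17 and Slc25a24 5.48 ± 0.65 CPM per kb in Control, and Slc25a23 had 4.70 ± 0.59 and Slc25a24 8.12 ± 0.87 CPM per kb in Celf1cKO lenses (SD, n = 3). Slc25a25, the remaining measured gene of this kind, had a log2 fold-change of -0.26 with overlapping groups (limma adjusted p 0.40). Without any single library other than Celf1cKO library 1, both Slc25a23 and Slc25a24 lost the test, with limma adjusted p between 0.051 and 0.14.

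Carriers of cofactors, nucleotides and glutathione numbered 11. At an adjusted p under 0.05, 1 was elevated, beside 7.85% of all genes, and 1 was reduced, beside 4.03%. Slc25a33, which carries pyrimidine nucleotides into mitochondria, was at 4.71, 4.67 and 4.44 log2 CPM in Control and 4.28, 3.71 and 3.74 log2 CPM in Celf1cKO lenses. It was reduced without overlap, and Celf1cKO library 1 lay closest to Control. The log2 fold-change was -0.70 (SE 0.18, 95% confidence interval -1.11 to -0.28), or 0.62-fold, with a limma adjusted p of 0.046. This call was lost without any single library other than Celf1cKO library 1, with log2 fold-changes between -0.78 and -0.60 and limma adjusted p between 0.081 and 0.17.

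Slc25a36, another pyrimidine nucleotide carrier gene with 65.4% identical aligned coding bases, was at 6.34, 6.28 and 6.06 log2 CPM in Control and 6.02, 5.87 and 5.75 log2 CPM in Celf1cKO lenses. All Celf1cKO libraries were below all Control libraries, with a log2 fold-change of -0.35 and a limma adjusted p of 0.084. The replicate block brought that value to 0.041, the lowest of the alternative fits, whose highest was 0.42. Slc25a33 minus Slc25a36 was -1.63, -1.60 and -1.62 in Control and -1.74, -2.16 and -2.01 in Celf1cKO lenses, as differences in log2 CPM, so that Slc25a33 was lower relative to Slc25a36 in each Celf1cKO library (exact permutation p 0.1, the smallest possible).

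Slc25a17, which encodes a carrier of coenzyme A and other cofactors in the peroxisomal membrane, was at 4.36, 4.64 and 4.49 log2 CPM in Control and 4.85, 5.17 and 5.05 log2 CPM in Celf1cKO lenses. It was elevated without overlap, with a log2 fold-change of 0.52 (SE 0.12) and a limma adjusted p of 0.039. Leaving out any single library other than Celf1cKO library 1 brought that adjusted p to between 0.076 and 0.15.

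Slc25a39 and Slc25a40 encode carriers needed for mitochondrial glutathione. Slc25a39, the third most abundant member per kilobase in Control, was at 6.48, 6.38 and 6.40 log2 CPM in Control and 6.33, 6.39 and 6.31 log2 CPM in Celf1cKO lenses. Slc25a40 was at 1.80, 1.56 and 2.27 log2 CPM in Control and 1.99, 2.04 and 2.002 log2 CPM in Celf1cKO lenses. Both genes overlapped between groups, with log2 fold-changes of -0.07 (95% confidence interval -0.25 to 0.10) and 0.13 (-0.39 to 0.66). The sign of the former turned under total-count scaling.

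Other members of the group included the mitochondrial NAD+ carrier gene Slc25a51, the coenzyme A carrier genes Slc25a16 and Slc25a42, the S-adenosylmethionine carrier gene Slc25a26 and the folate carrier gene Slc25a32. Their log2 fold-changes ran from 0.03 to 0.39, and none passed the test. Slc25a51 was the only one of them whose groups did not overlap (log2 fold-change 0.22, limma adjusted p 0.15).

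The mitoferrins import iron for heme and iron-sulfur clusters, with Slc25a37 best known from red cell precursors and Slc25a28 from other cells. Slc25a28 was at 3.94, 3.79 and 4.06 log2 CPM in Control and 3.95, 4.27 and 4.23 log2 CPM in Celf1cKO lenses. Slc25a37 was at 3.17, 2.55 and 3.13 log2 CPM in Control and 3.30, 2.90 and 2.91 log2 CPM in Celf1cKO lenses. Neither separated the groups, with log2 fold-changes of 0.22 and 0.09 and limma adjusted p of 0.31 and 0.82. Slc25a37 minus Slc25a28 did not separate them either (exact permutation p 0.7).

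The 3 members that resemble the uncoupling proteins did not pass the test. Slc25a14, on the X chromosome, was at 1.99, 2.10 and 2.14 log2 CPM in Control and 2.27, 2.88 and 2.83 log2 CPM in Celf1cKO lenses. It was higher in all Celf1cKO libraries, and its log2 fold-change of 0.58 had a limma adjusted p of 0.11. Slc25a27, known mainly from the brain, was at 2.80, 2.60 and 3.50 log2 CPM in Control and 2.27, 2.59 and 2.17 log2 CPM in Celf1cKO lenses. Its groups were set apart by a narrow gap between Control library 2 and Celf1cKO library 2, with a log2 fold-change of -0.62 and a limma adjusted p of 0.16. Slc25a30 was no higher than 1.12 log2 CPM in any library, with a log2 fold-change of -0.49 and a limma adjusted p of 0.26.

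Of 5 members with other or no assigned substrates, 2 were elevated at an adjusted p under 0.05, beside 7.85% of all genes. Only 1 of them was called, beside 4.77% called elevated. Slc25a53, an X-linked gene whose substrate is not assigned, was at 3.81, 3.70 and 3.69 log2 CPM in Control and 4.22, 4.50 and 4.37 log2 CPM in Celf1cKO lenses. Control library 3, the only Control library without Y-linked transcripts, was at 3.69 log2 CPM. The part of sex in the difference was not tested. The log2 fold-change was 0.63 (SE 0.12, 95% confidence interval 0.35 to 0.91), or 1.55-fold, with a limma adjusted p of 0.021. Its call was lost without any single library other than Celf1cKO library 1, with log2 fold-changes between 0.56 and 0.67 and limma adjusted p between 0.051 and 0.11.

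Slc25a46, which sits in the outer mitochondrial membrane and takes part in mitochondrial shape and lipid transfer, was at 4.80, 4.72 and 4.43 log2 CPM in Control and 5.08, 5.38 and 5.19 log2 CPM in Celf1cKO lenses. It was elevated without overlap, with a log2 fold-change of 0.56 (SE 0.13) and a limma adjusted p of 0.039, which rose to between 0.063 and 0.14 when any single library other than Celf1cKO library 1 was left out. Slc25a34, Slc25a35 and Slc25a45 averaged -0.22, 0.48 and -0.96 log2 CPM and did not separate the groups.

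The order of levels per kilobase changed little at the top, and changes further down were not particular to the called members. In Control the highest were Slc25a4, Slc25a5 at 55.7 ± 3.19, Slc25a39 at 31.1 ± 1.16, Slc25a11 at 28.8 ± 3.05 and Slc25a3 at 19.7 ± 0.23 CPM per kb (SD, n = 3). Slc25a39 and Slc25a11 lay within their spread of each other in Control, while the other neighbours in this order stood further apart than their SDs. Slc25a1 went from rank 13 at 5.60 ± 0.58 CPM per kb in Control to rank 5 at 22.4 ± 4.56 CPM per kb in Celf1cKO lenses. Slc25a22 went from rank 12 to rank 7 and Slc25a33 from rank 6 to rank 12. Slc25a23, which was not called, went from rank 11 to rank 17.

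**Figure D3:**
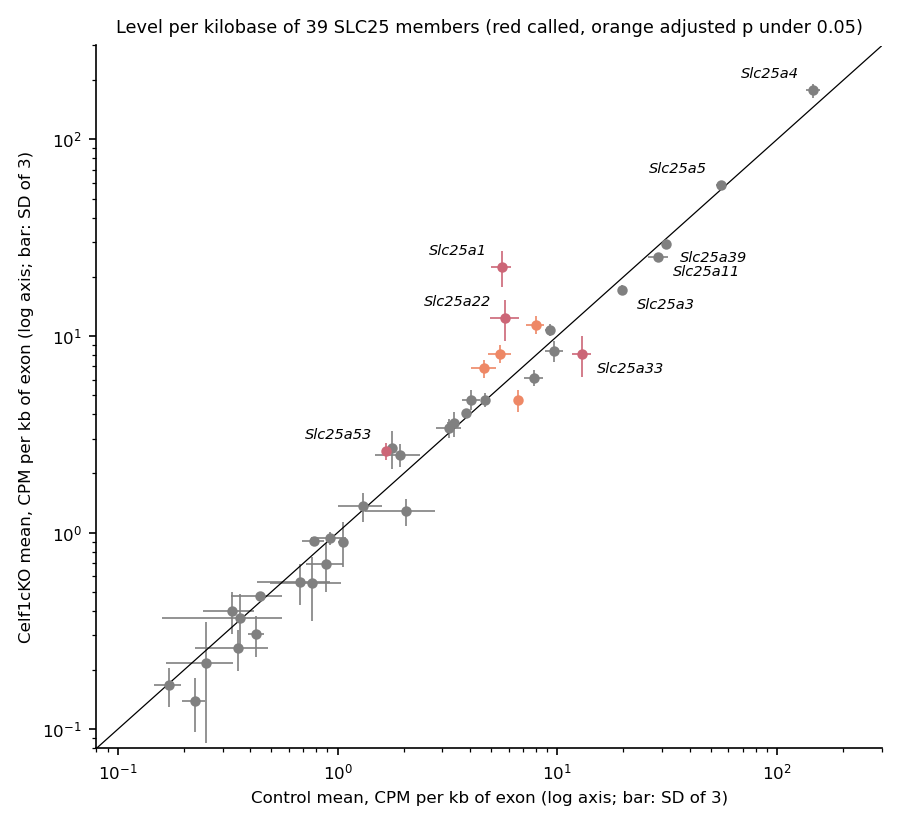
Mean level in CPM per kilobase of exon in Control (horizontal, log axis) and Celf1cKO lenses (vertical, log axis) for 39 members, with bars for the SD of 3 libraries and a line of equal level. Slc25a4 is highest in both groups, and Slc25a1 and Slc25a22 lie furthest above the line while Slc25a33 lies below it.

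Summed over the family, transcripts made up 1220, 1231 and 1145 CPM in Control and 1274, 1408 and 1331 CPM in Celf1cKO lenses. The Celf1cKO libraries were all above the Control libraries, 1.12-fold on average, with an exact permutation p of 0.1. Slc25a4 alone accounted for 28.7%, 29.6% and 27.5% of this sum in Control and 30.1%, 32.03% and 31.3% in Celf1cKO lenses. Without it the sums were 870, 867 and 831 CPM in Control and 891, 957 and 914 CPM in Celf1cKO lenses. In all, 13 single values of this kind were compared, and none of them had a Benjamini-Hochberg adjusted p under 0.16 over the 13.

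**Figure D4:**
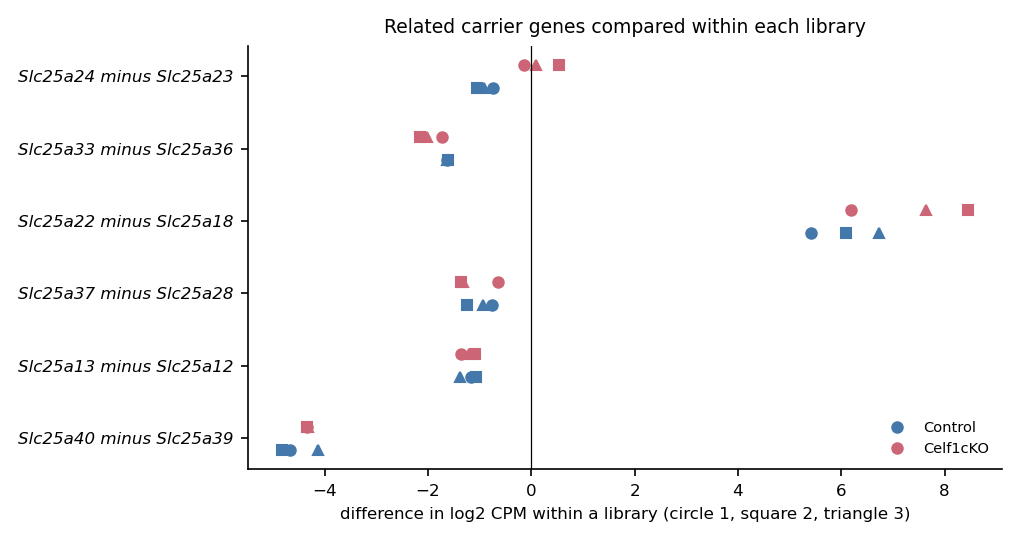
Difference in log2 CPM between 2 related carrier genes within each library (horizontal axis), for 6 pairs, with Control in blue and Celf1cKO in red. Slc25a24 minus Slc25a23 is between -1.04 and -0.75 in Control and between -0.14 and 0.53 in Celf1cKO lenses, while Slc25a13 minus Slc25a12 and Slc25a37 minus Slc25a28 overlap. The separation of the first pair follows from the opposite directions of its genes.

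Celf1cKO library 1 lay nearest to the Control mean in 8 of 8 members with an adjusted p under 0.05. The same library was nearest in 81.1% of the 1655 genes with an adjusted p under 0.05 in the whole table. It also held the most Celf1 transcript of its group and, at 455 CPM, the highest sum of lens epithelium markers among Celf1cKO lenses. Without this library 8 members were called, beside 13.8% of all genes, adding Slc25a14, Slc25a17, Slc25a24 and Slc25a46 to the 4 already named.

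The 3′ untranslated regions of members were searched for TGTTTGT, which is of the GU-rich kind bound by Celf1, on the transcript strand in GENCODE M21 on GRCm38. It occurred in 13 of 40 members, or 32.5%, beside 30.4% of 13152 genes of the table. Overlapping double copies occurred in 3 members, or 7.5%, beside 4.20% of genes. Sites are shown for the 2 called members that held a copy, for Slc25a36, and for the 3 members with a double copy. Capitals mark the matches, and positions in the order below are chr7:141430269-141430293, chrX:136981193-136981217 and chr9:97076454-97076478 for single copies and chr2:71272985-71273013, chr15:39092264-39092292 and chr4:45398003-45398031 for double copies, all on the minus strand.
Slc25a22: cttgtgtgcTGTTTGTgcctcagga
Slc25a53: gttggggtgTGTTTGTtttctttta
Slc25a36: ttcaactttTGTTTGTtttattttt
Slc25a12: tctttttatTGTTTGTTTGTtttttgaga
Slc25a32: tgttgttatTGTTTGTTTGTtttatttcc
Slc25a51: tttttttttTGTTTGTTTGTttatttttt
The 3 genes with a double copy did not pass the test, with log2 fold-changes of 0.08 for Slc25a12, 0.22 for Slc25a32 and 0.22 for Slc25a51. Of the 8 members past the test, Slc25a22, Slc25a53 and Slc25a46 held the core, and Slc25a1 held none.

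Other genes of mitochondrial transport were taken from a list of 41, of which 38 were in the table. None was called, beside 7.39% of all genes, and nothing is read from this absence in so short a list. A limma adjusted p under 0.05 was found in 9, beside 11.9% of all genes. Of these, 7 were elevated, beside 7.85% of all genes, and 2 were reduced, beside 4.03%. An unadjusted limma p under 0.05 was found in 18 of the 38, beside 4171 of all 13931 genes. Under total-count scaling 19 had an adjusted p under 0.05, beside 23.3% of all genes, and all of these were elevated, beside 20.9% of all genes. With the thresholds on fold and level, 10 were called under that scaling, beside 13.4% of all genes. The median log2 fold-change of the 38 was 0.21, beside -0.04 over all genes.

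The outer membrane channels, through which metabolites reach the carriers, were all elevated at a limma adjusted p under 0.05, beside 7.85% of all genes. None of them was called, beside 7.39% of all genes. Vdac2 was at 7.11, 7.005 and 6.92 log2 CPM in Control and 7.45, 7.70 and 7.56 log2 CPM in Celf1cKO lenses, with a log2 fold-change of 0.56 (limma adjusted p 0.016). Vdac3 and Vdac1 had log2 fold-changes of 0.49 and 0.39 (limma adjusted p 0.036 and 0.030). None of these channels had overlapping groups.

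On the route by which carrier precursors are imported, none of 11 genes was called, beside 7.39% of all genes. At a limma adjusted p under 0.05, 2 were elevated, beside 7.85% of all genes, and none was reduced, beside 4.03%. Tomm70a, the outer membrane receptor for carrier precursors, was at 6.56, 6.45 and 6.37 log2 CPM in Control and 6.89, 7.10 and 6.96 log2 CPM in Celf1cKO lenses, with a log2 fold-change of 0.52 (limma adjusted p 0.017). Timm29, a subunit of the inner membrane carrier translocase, had a log2 fold-change of 0.50 (limma adjusted p 0.031). Timm10, a chaperone of the intermembrane space, had a log2 fold-change of 0.60 and a limma adjusted p of 0.057, which became 0.035 with the replicate block and so passed all thresholds there, the range over the alternative fits being 0.015 to 0.22.

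Among 20 other inner membrane transporters and their regulators, none was called, beside 7.39% of all genes. At a limma adjusted p under 0.05, 2 were elevated, beside 7.85% of all genes, and 2 were reduced, beside 4.03%. The elevated genes were Ghitm, which takes part in calcium and proton exchange (log2 fold-change 0.56, limma adjusted p 0.020), and Mpc2, a subunit of the mitochondrial pyruvate carrier (0.46, limma adjusted p 0.035). Letm1, an ion exchanger, was among the reduced genes (-0.35, limma adjusted p 0.049). The uniporter pore gene Mcu had a log2 fold-change of 0.01 with a limma adjusted p of 0.99. Family members under other symbols, Mtch1, Mtch2, Ucp2 and Ucp3, did not pass the test.

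**Figure D5:**
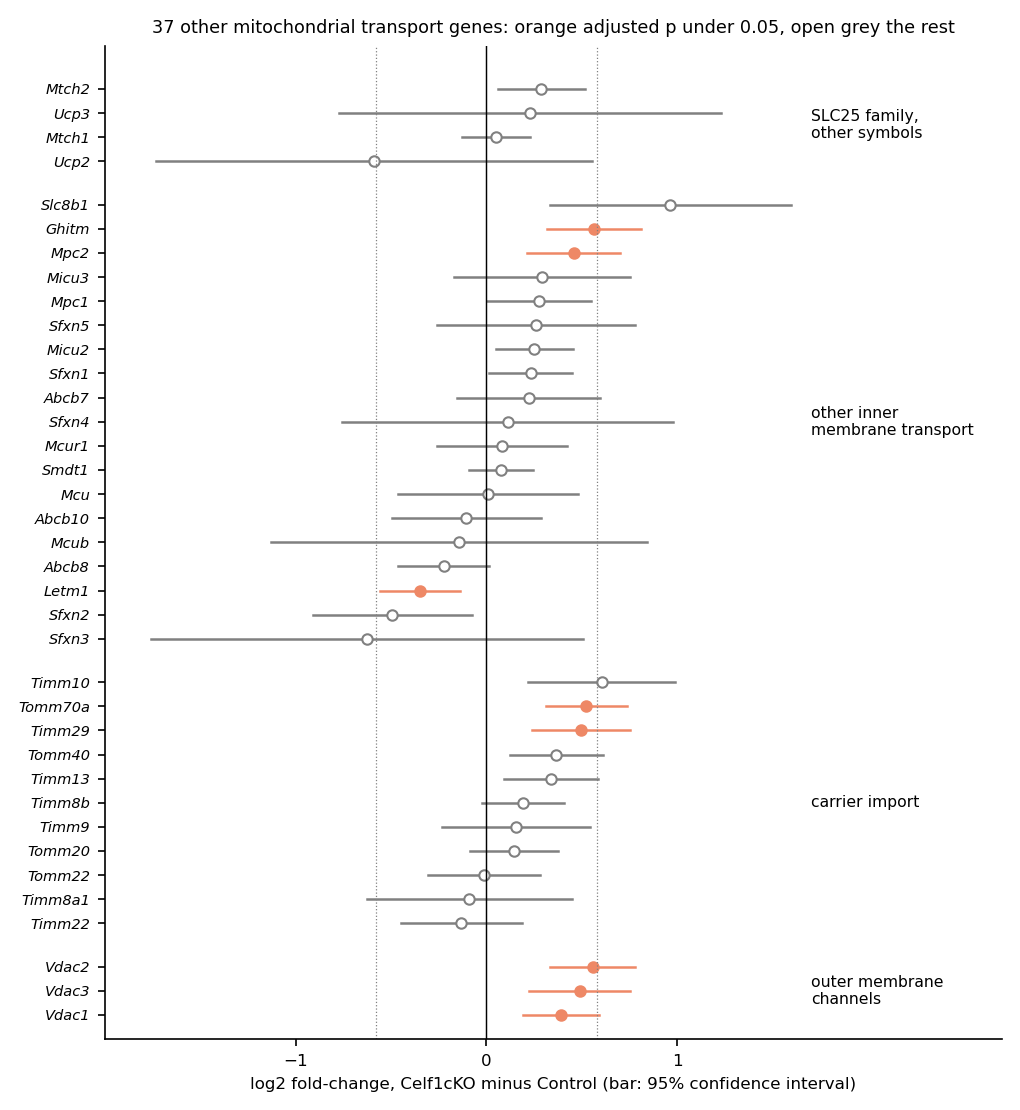
Log2 fold-change (Celf1cKO minus Control, horizontal axis) of 37 mitochondrial transport genes outside the Slc25a symbols, by function, with 95% confidence intervals and dotted lines at 0.58 in each direction. All outer membrane channel genes lie to the right, from 0.39 to 0.56, whereas Letm1 lies to the left at -0.35.

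Exons of 13 members overlapped exons of another annotated gene, 11 of them on the opposite strand and 2 on the same strand. Slc25a23, Slc25a46 and Slc25a33 were among the former, with 168, 383 and 281 shared bases. The libraries were strand-specific, but whether counting used the strand is not given in the sources used here, so reads of such pairs may not have been told apart.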

How the data were processed

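RNA-sequencing libraries were made from pooled lenses of newborn mice, 3 per group. The authors trimmed strand-specific paired reads, aligned them to GRCm38.p6 with STAR (2.7.8a), kept unique alignments, counted them per gene with featureCounts (2.0.0) and normalised with edgeR, and they deposited log2 CPM values with a small prior count for each library. The authors' average log2 CPM was used for the level threshold. Their own fold-changes, F statistics, p-values and FDR were not used.

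Groups follow the labels. Deposited log2 CPM values of all 13931 genes were fitted with limma (3.58.1, R 4.3.3) with a variance trend and no block, with Benjamini-Hochberg adjustment over all genes and the thresholds of the study's methods. Prior degrees of freedom were 3.4. The values are not counts, so limma was the main test. Whole reads were recovered from the value steps (100% of values within 0.01 of a whole read), 40694454 to 44387151 per library, and were used with limma voom as an alternative. Single values were compared by two-sided exact permutation tests. Replicate numbers in the labels may pair the groups. Deviations from the group means correlated at 0.30, 0.42 and 0.35 for the same number and between -0.39 and 0.03 otherwise. Deviations within a group balance out, so these correlations are not independent of each other and do not settle the pairing. The fitting code was tested on simulated counts. Exon lengths, coding and 3′ untranslated sequences came from GENCODE M21 (GRCm38), in which 13928 identifiers were found and 3 were not, and promoters from RefSeq (GRCm38.p6). Levels per kilobase divide CPM by the union of exons, whatever isoforms are used. Figures were drawn with matplotlib (3.10.9, Python 3.11.15).

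Members, lists and tests were chosen with earlier results of these data known. Values in every library were given for members called or past the test with or without the block, for those whose log2 fold-change exceeded 0.58 up or down with no overlap, for the 5 highest per kilobase in Control and for 5 fixed paralogue pairs (22 members). Alternative fits used the replicate block, log2(CPM + 1), no variance trend, robust empirical Bayes, median centring, quantile normalization, rescaling without crystallin genes, total-count scaling, voom, expressed genes only, other thresholds, each library left out in turn and, added after seeing the data, Y-linked status as a covariate. The values of 2 genes are not reported here, though they entered all fits and counts.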

Additional observations from a re-analysis of the deposited data

How the results depend on the processing

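The count of 4 members called was the same with the replicate block (4), robust empirical Bayes, log2(CPM + 1), median centring, quantile normalization, rescaling without crystallin genes, voom, expressed genes only and an adjusted p under 0.1. It became 1 with no variance trend, 7 under total-count scaling, 8 with no fold threshold and 0 with Y-linked status as a covariate, and ran from 0 to 8 when single libraries were left out. Members with an adjusted p under 0.05 numbered 9 with the replicate block, 1 with no variance trend, 0 with Y-linked status as a covariate and 0 to 11 when single libraries were left out. The median log2 fold-change of members, 0.05, became 0.027 under median centring, 0.066 under quantile normalization, 0.031 without crystallin genes, 0.28 under total-count scaling, 0.080 over expressed genes and -0.038 with Y-linked status, and ran from -0.0041 to 0.061 when single libraries were left out, so its sign is not settled. Other transport genes called, 0 in the fit reported, became 1 with the replicate block, 2 under quantile normalization, 10 under total-count scaling, 1 over expressed genes only, 9 with no fold threshold and 2 at an adjusted p under 0.1, and ran from 0 to 4 when single libraries were left out. Among members and other transport genes, the replicate block changed only the call of Timm10. It also brought Slc25a36 under an adjusted p of 0.05, short of the fold threshold. All genes moved as well: 7.39% were called in the fit reported, 9.18% with the replicate block and 13.4% under total-count scaling. With single libraries left out, 0.00718% to 13.8% were called. Of 13931 genes, 421 were called with no variance trend, 1030 under quantile normalization, 1550 with no fold threshold and 1102 over expressed genes only. Other shares are given above or not given here, so nothing particular to these lists is read. The causes of these changes were not tested. The fits that leave a library out rest on fewer libraries, and the fit of expressed genes adjusts over fewer genes. With 3 libraries a group and a covariate, 3 residual degrees of freedom remain. Members with at most 30 reads per library, Slc25a18, Slc25a29 and Slc25a45, are limited by depth.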
